A study of Saccharomyces cerevisiae with 160 samples.

Results

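Cohesin and condensin are the ring complexes that hold and fold chromosomes, and the transcripts of their 10 genes in budding yeast were followed over time. The members were the probe sets that the array annotation assigns to 5 cohesin genes (*MCD1*, *SMC1*, *SMC3*, *IRR1* and *PDS5*) and 5 condensin genes (*SMC2*, *SMC4*, *BRN1*, *YCG1* and *YCS4*), each with 1 probe set, and made up 10 of 5716 yeast probe sets. The rule is membership in a complex and uses no measured value, although the list was drawn up with earlier results of these data known. Affymetrix Yeast 2.0 arrays had been hybridised with RNA from synchronous cultures, 160 arrays in all from 9 cultures of 5 strains. The study asked how transcription that follows the cell cycle behaves when cells are held by a checkpoint or by the loss of Cdc20. Small G1 cells had been isolated by size (elutriation) and sampled as they went on into S phase and then arrested.

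All 5 strains were MATa of the BF264-15DU background. The strain called *cdc8* carried cdc8-ts, a temperature-sensitive allele of thymidylate kinase, which stops DNA replication and so triggers the replication checkpoint (2 cultures, 16 arrays each, 30 to 260 min). The *cse4* strain was bar1 with CFP-TUB1::URA3 and expressed a mutant centromeric histone from a galactose promoter (Pgal-cse4-353::TRP1), which triggers the spindle checkpoint (2 cultures, 18 arrays each, 90 to 345 min). The *rad53* strain was bar1 and cdc8ts, held CFP-TUB1::URA3, had CDC20 under galactose control (Pgall-CDC20::ADE2 in cdc20::LEU2) and carried rad53-1, an allele of the effector kinase of the replication checkpoint (2 cultures, 20 arrays each, 18 to 360 min). The *cdc8cdc20* strain had the same alleles without rad53-1 (1 culture, 20 arrays, 18 to 360 min). The *cdc20* strain was bar1 with CFP-TUB1::URA3 and had cdc20::LEU2 together with Pgall-CDC20::ADE2, so that dextrose depletes Cdc20 and cells stay before anaphase with mitotic cyclin present (2 cultures, 14 arrays from 40 to 300 min and 18 arrays from 20 to 360 min). Cells of *cse4* grew in galactose with sorbitol, those of *cdc8* and *cdc20* in dextrose with sorbitol, and the labels of *rad53* and *cdc8cdc20* give no medium. The paper places *rad53* cells in a dextrose medium from the start and says that *cdc8cdc20* cells were handled in the same way. Strain, medium and sampling grid therefore cannot be told apart in the comparisons with *cse4*. *CFP-TUB1* and the *bar1* deletion are absent from the genotype given for *cdc8*. The paper reports release of *cdc8* and *cdc8cdc20* cells into the restrictive temperature. In *cdc8* against *cdc20*, these markers, the sampling grid and any difference in temperature therefore cannot be told apart from the arrest.

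Cohesin is a ring of Smc1, Smc3 and the kleisin Mcd1, also called Scc1, to which Irr1 (Scc3) and Pds5 bind. It is loaded on chromosomes around the start of S phase, holds sister chromatids together from then on, and is opened at anaphase when separase cuts Mcd1, so that the kleisin has to be made anew in each cycle. Condensin pairs Smc2 and Smc4 with the kleisin Brn1 and the HEAT repeat subunits Ycg1 and Ycs4, and it compacts and resolves chromosomes in mitosis.

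The values are intensities on a linear scale, with array medians from 1020 to 1284, and the level of a member is given either as intensity or as log2(intensity + 1). The culture was the replicate, so that n is 2, or 1 for *cdc8cdc20*, and the spread between cultures was pooled over the strains. Strain labels were checked on *BAR1* (mean log2 level of 11.4 in both *cdc8* cultures and at most 7.39 in the other 7) and by *CSE4* (14.3 in both *cse4* cultures and at most 8.80 elsewhere). The *CDC20* probe set had a mean log2 level of 8.18 and 8.17 in *cdc8*, 8.72 and 8.59 in *cse4*, 9.11 and 9.31 in *rad53*, 9.16 in *cdc8cdc20* and 8.90 and 9.0 in *cdc20*. It was therefore not lower in the strains with CDC20 under galactose control, and these transcript values do not show the depletion of Cdc20. The arrest is named for Cdc20 from the labels and the paper, which reports lasting Clb2 protein and short spindles in *cdc20* cells. *HUG1*, a gene induced by the replication checkpoint, averaged 7.48 and 7.24 in *rad53* cultures, against 12.9 in the *cdc8cdc20* culture. In *cse4* replicate 1 the arrays at 150 and 180 min stood apart, with a root mean square distance from their neighbours of 0.453 and 0.415 on the log2 scale, where the median of that culture was 0.199. *MCD1* read 4633 and 3387 on those arrays, against 2644 on the array between them. That array, at 165 min, had a distance of 0.436, with the arrays at 150 and 180 min as its neighbours. The array at 270 min, inside the window used below for the *cse4* arrest level, had 0.342. *SMC2* read 1124 at 255 min and 830 at 270 min in that culture. *BRN1* was dim, with a median intensity of 107 over all arrays, which places its mean log2 level at the 2.48 percentile of all probe sets.

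All 5 cohesin genes and 4 of 5 condensin genes rose from the first arrays into the G1/S window, whereas 21.7% of all probe sets did. The G1/S window was set by *CLN2*, a G1 cyclin gene outside the list, as the 3 arrays around its highest value, which fell at 90 and 100 min in *cdc8*, 150 and 165 min in *cse4*, 72 min in all 3 cultures of *rad53* and *cdc8cdc20*, and 100 min in both *cdc20* cultures. *MCD1* had the largest rise, by 2.53 ± 0.11 on the log2 scale (SE, mean of the 5 strains, adjusted p = 7.45e-05). By strain the *MCD1* rise was 3.68 ± 0.26 in *cdc8*, 2.16 ± 0.31 in *cse4*, 1.95 ± 0.61 in *rad53* and 2.59 ± 0.30 in *cdc20* (SD, n = 2 each), with 2.25 in the single *cdc8cdc20* culture. The gene for the cleavable subunit thus went up in each of the 9 cultures. *PDS5* rose by 1.87 ± 0.10, *SMC3* by 1.81 ± 0.11 and *IRR1* by 1.60 ± 0.08, and *SMC1*, the other ATPase of the ring, by 0.78 ± 0.08 (SE; adjusted p from 7.84e-05 to 0.0005). Within condensin, *YCS4* rose by 0.89 ± 0.08, *SMC2* by 0.51 ± 0.06, *YCG1* by 0.41 ± 0.09 and *SMC4* by 0.38 ± 0.07 (SE; adjusted p from 0.000329 to 0.00983). *BRN1*, with 0.18 ± 0.07 and an adjusted p of 0.0637, was not called. The median rise was 1.81 for the cohesin genes and 0.41 for the condensin genes, with -0.00 over all probe sets.

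**Figure D1:**
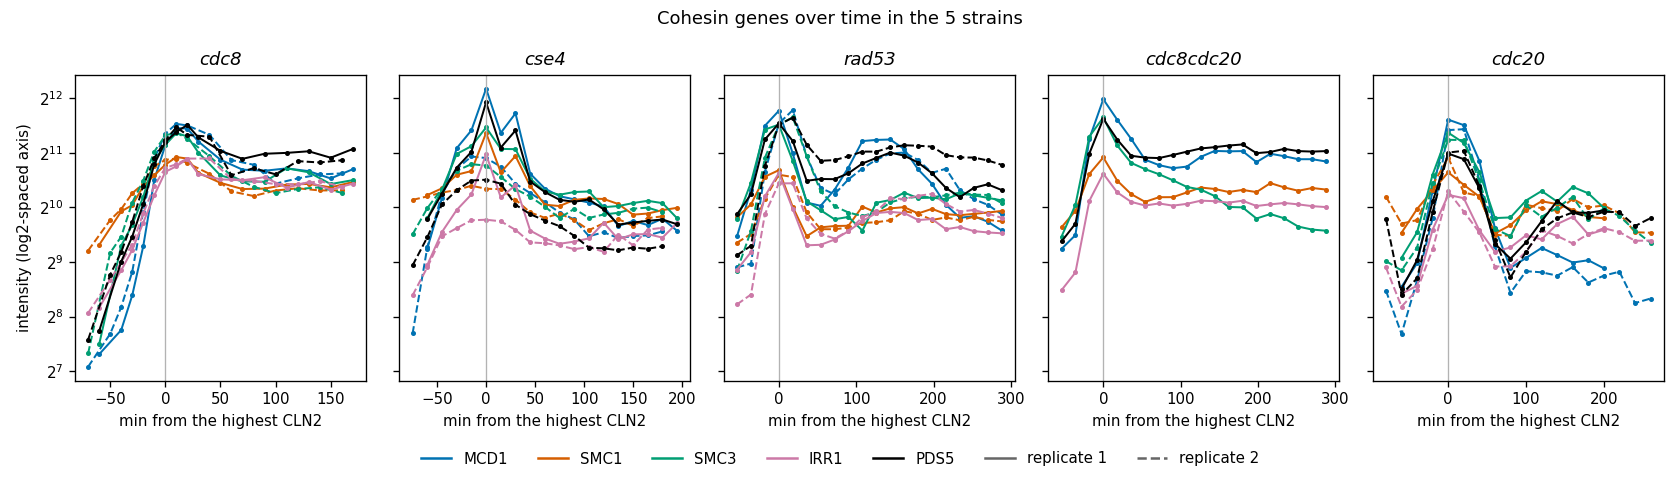
Intensity of the 5 cohesin genes (vertical axis, log2-spaced) against minutes from the highest *CLN2* value (horizontal axis), in 1 panel per strain, with replicate 1 as a solid and replicate 2 as a dashed line. All genes reach a first high near 0 min, after which *MCD1* goes no lower than 1386 in *cdc8* and 1687 in *cdc8cdc20*, comes back in *rad53*, and from 180 min of culture time on is at most 612 in *cdc20*.

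The first wave of each cohesin gene lay close to that of *CLN2*. In *cdc8*, where arrays around the peak were closest in time, it came later. The cohesin peaks followed *CLN2* by 10 to 20 min in replicate 1 and by 10 to 40 min in replicate 2. In the other strains they lay between 15 min before and 20 min after it, on coarser sampling grids. The first peak, taken as the highest intensity before the arrest window, lay within 20 min of the *CLN2* peak in 9 of 9 cultures for *MCD1*, *SMC1*, *SMC3* and *PDS5* and in 8 of 9 for *IRR1*. Condensin peaks were more scattered, within 20 min in 8 cultures for *YCS4*, 7 for *SMC2* and *SMC4*, 4 for *YCG1* and 1 for the dim *BRN1*. *YCG1* peaked 20 and 40 min after *CLN2* in *cdc8*, 30 and 45 min after it in *cse4*, 18 min after it in both *rad53* cultures and 36 min after it in *cdc8cdc20*. In *cdc20* it peaked 40 min before *CLN2* in replicate 1 and 20 min after it in replicate 2. *MCD1* had the widest swing of the list, with a ratio of highest to lowest intensity between 4.92 and 21.9 in the 9 cultures (median 8.37), which was at or above the 94.9 percentile of all probe sets in each culture. *PDS5* (median ratio 5.59), *SMC3* (4.90) and *IRR1* (4.32) followed, and *SMC1* had 2.43. The condensin genes had median ratios between 1.82 for *SMC4* and 2.19 for *YCS4*, close to the median probe set of a culture (1.76 to 2.49).

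What happened after the first wave depended on the strain, most of all for *MCD1*. Arrest levels were taken over fixed windows (180 to 260 min in *cdc8*, 255 to 330 min in *cse4*, 198 to 270 min in *rad53* and *cdc8cdc20*, and 200 to 280 min in *cdc20*). *MCD1* stood at 57.4% and 52.2% of its first peak in *cdc8*, 19.7% and 37.9% in *cse4*, 56.0% and 53.2% in *rad53*, 49.6% in *cdc8cdc20*, and 17.5% and 15.9% in *cdc20*. The cultures of *cdc20* were the lowest and shared no value with those of *cdc8*, *rad53* or *cdc8cdc20*. The *cse4* replicate 1 share rests on the peak of 4633 at 150 min, an array that stood apart. For *PDS5* the shares were 70.1% and 61.7% in *cdc8*, 23.6% and 42.8% in *cse4*, 62.5% and 68.5% in *rad53*, 69.2% in *cdc8cdc20*, and 44.1% and 38.6% in *cdc20*. *SMC3* had another order, with 57.0% and 48.2% in *cdc8*, 38.8% and 54.7% in *cse4*, and 45.5% and 41.4% in *cdc20*. Its lowest shares were 39.2% and 34.3% in *rad53* and 33.4% in *cdc8cdc20*, apart from *cse4* replicate 1. *SMC1* had a narrower range outside *cse4*, from 54.1% in *cdc20* replicate 2 to 69.8% in *cdc8* replicate 1. Over all probe sets the median share was between 70.6% and 82.6% in every culture. In bulk RNA a level that falls in some cells cannot be told apart from a smaller fall in all of them.

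**Figure D2:**
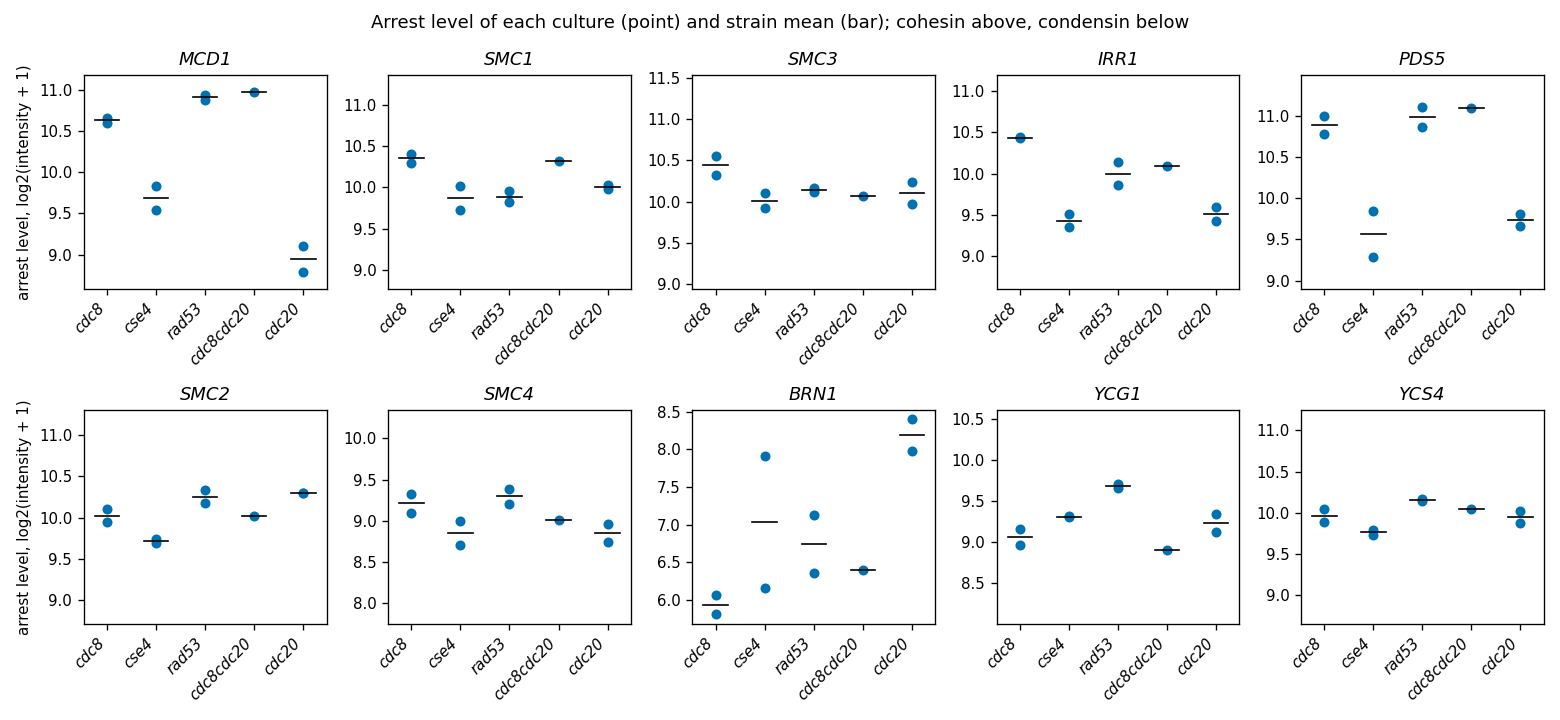
Arrest level of each member as log2(intensity + 1) (vertical axis; each panel spans at least 2.6 log2 units) by strain (horizontal axis), with a point for each culture and a bar for the strain mean. *MCD1*, *PDS5* and *IRR1* are high in *cdc8*, *rad53* and *cdc8cdc20* and low in *cse4* and *cdc20*, *SMC2* is lowest in *cse4*, and the *BRN1* points of the *cse4* strain lie far apart.

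The replication checkpoint arrest was first set against the Cdc20 arrest. In *cdc8* cultures the *MCD1* arrest level was 10.63 ± 0.04, against 8.94 ± 0.22 in *cdc20* cultures (log2, SD, n = 2 each). The intensities behind these means were 1616 and 1549 in the *cdc8* cultures and 548 and 441 in the *cdc20* cultures, so that the groups were far apart. *MCD1* was 3.21-fold higher in *cdc8* (log2 difference 1.68 ± 0.15 SE, adjusted p = 0.000192, limma across all probe sets). *PDS5*, which encodes the subunit that maintains cohesion, was 2.22-fold higher (1.15 ± 0.20, adjusted p = 0.00301). *IRR1* was 1.91-fold higher (0.93 ± 0.14, adjusted p = 0.00158). *SMC1* (0.35 ± 0.13, adjusted p = 0.0601) and *SMC3* (0.34 ± 0.14, adjusted p = 0.0827), the ATPases of the ring, were not called. Thus 3 of 5 cohesin genes and 0 of 5 condensin genes were higher, where 19.1% of all probe sets were. These 3 calls held whichever culture was left out. The members not called were less settled. With both directions counted, 4 of 10 members were called here, 5 after quantile normalization and 6 with the replicate number as a term. Leaving out either *cse4* culture, which enters this comparison only through the pooled spread, also added calls. The median of all probe sets was -0.16 in this comparison and -0.14 between *cse4* and *cdc20* (-0.07 and -0.10 after quantile normalization). Relative to the typical probe set, a difference is therefore shifted upward by that much, which makes a positive difference larger.

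*BRN1*, the condensin kleisin gene, was the 1 member of 10 lower in *cdc8*, where 33.0% of all probe sets were. Its arrest intensities were 54.99 and 65.7 in *cdc8* cultures, against 252 and 337 in *cdc20* cultures. On single arrays *BRN1* stood at the 0.192 to 1.07 percentile of all probe sets in *cdc8* cultures, against the 5.44 to 17.6 percentile in *cdc20* cultures. The values come with no detection call, and levels this low cannot be told apart from background. The fitted log2 difference of -2.26 ± 0.52 (SE, adjusted p = 0.0100) is therefore given for its direction and is not a measured fold. The call was lost without *cdc20* replicate 2 (adjusted p = 0.0633) or without *cdc8* replicate 1 (0.0585). *BRN1* was already low in *cdc8* before the arrest, at 62.3 and 65.4 as the mean of the first pair of arrays, against 162 and 197 in *cdc20*, and replicates of other strains disagreed, with arrest intensities of 70.3 and 240 in *cse4* and of 139 and 80.7 in *rad53*. What sets this dim probe set apart between cultures was not tested.

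**Figure D3:**
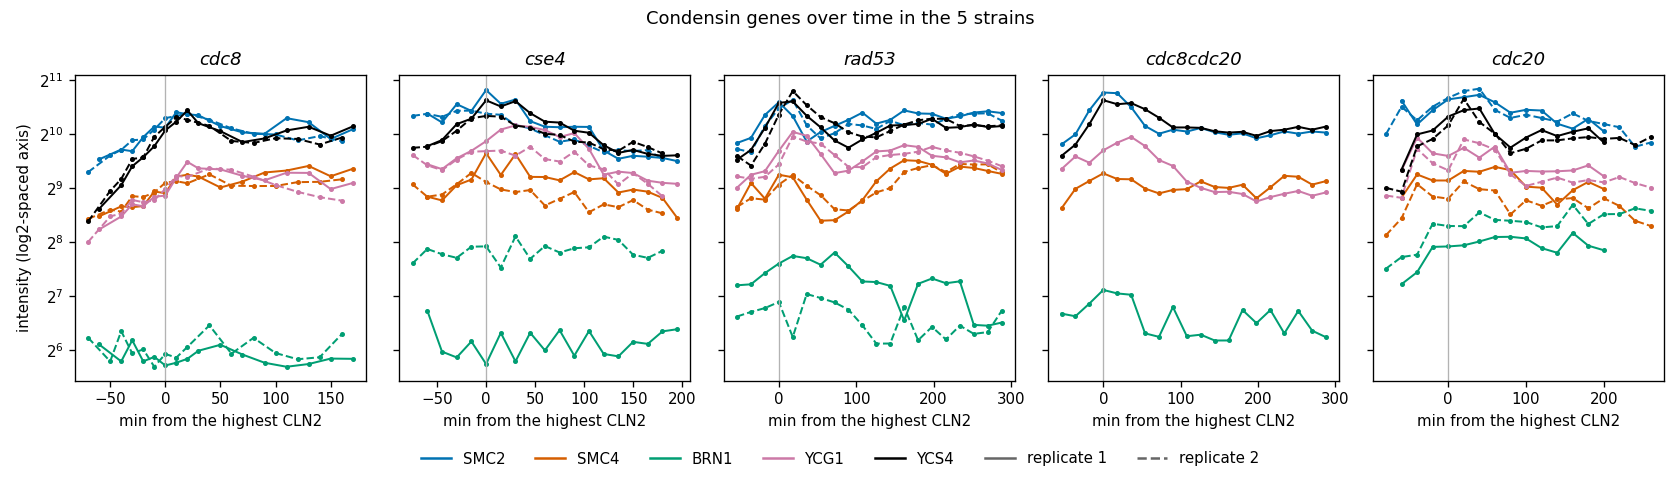
Intensity of the 5 condensin genes (vertical axis, log2-spaced) against minutes from the highest *CLN2* value (horizontal axis), in 1 panel per strain, with replicate 1 as a solid and replicate 2 as a dashed line. *SMC2*, *YCS4*, *YCG1* and *SMC4* move over a narrow range, *YCG1* ends lower in *cdc8cdc20* than in *rad53*, and *BRN1* lies at different heights in the replicate cultures of *cse4* and *rad53*.

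Since levels can differ between strains throughout, the change within a culture from the G1/S window to the arrest window was also compared. *MCD1* changed by -0.38 and -0.66 in *cdc8* cultures, against -2.04 and -2.10 in *cdc20* cultures. The drop was smaller in *cdc8* by 1.55 ± 0.16 on the log2 scale (SE, adjusted p = 0.000329), and this call held without any 1 culture. *PDS5* changed by -0.13 and -0.43 in *cdc8*, against -0.85 and -0.99 in *cdc20* (difference 0.64 ± 0.16, adjusted p = 0.0110). *YCG1* changed by 0.19 and -0.04 in *cdc8*, against -0.32 and -0.44 in *cdc20* (difference 0.46 ± 0.12, adjusted p = 0.0143). For *SMC4* the difference was 0.39 ± 0.11 (adjusted p = 0.0230). Hence 4 of 10 members had a smaller drop or a gain in *cdc8*, where 24.0% of all probe sets were called in that direction. Without *cdc20* replicate 2 or without *cdc8* replicate 1 only *MCD1* was called, *SMC4* was also lost without *cdc20* replicate 1, and *PDS5* over the last 5 arrays. *IRR1*, higher at the arrest level, had a difference in change of 0.25 ± 0.18 (adjusted p = 0.282).

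**Figure D4:**
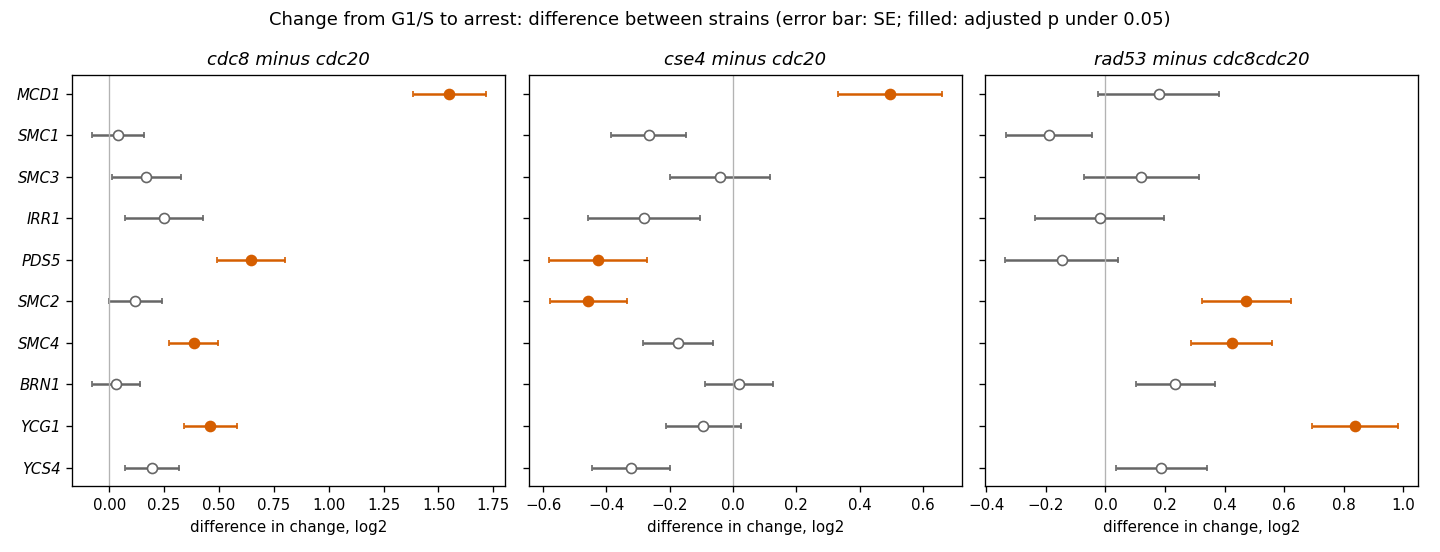
Difference between strains in the change from G1/S to arrest (horizontal axis, log2; positive means a smaller drop or a larger gain in the strain named first) for each member (rows), with SE bars and filled points for adjusted p under 0.05. The 3 panels have different horizontal scales; *MCD1* stands out at 1.55 between *cdc8* and *cdc20*, and *YCG1* at 0.84 between *rad53* and *cdc8cdc20*.

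Between the spindle checkpoint arrest and the Cdc20 arrest 1 cohesin gene and 1 condensin gene were called. *MCD1* had arrest intensities of 911 and 741 in *cse4* cultures, against 548 and 441 in *cdc20* cultures, and was 1.67-fold higher (log2 difference 0.74 ± 0.15 SE, adjusted p = 0.00715), where 17.7% of all probe sets were higher. The call was lost without *cdc20* replicate 2 (0.58, adjusted p = 0.0534). *SMC2*, an ATPase of condensin, had arrest intensities of 824 and 856 in *cse4* cultures, against 1256 and 1265 in *cdc20* cultures. It was lower by a log2 difference of -0.585 ± 0.11 (SE, adjusted p = 0.00612), the 1 member of 10 called lower, where 27.1% of all probe sets were. *PDS5* had a log2 difference of -0.17 ± 0.20 (adjusted p = 0.509) and *IRR1* of -0.08 ± 0.14 (0.677). The smaller number of calls does not show that these genes had equal levels.

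In the change from G1/S to arrest, *MCD1* dropped by 1.82 and 1.33 in *cse4* cultures, against 2.04 and 2.10 in *cdc20* cultures, a difference of 0.50 ± 0.16 (SE, adjusted p = 0.0361), where 24.2% of all probe sets were called in that direction. *PDS5* (-0.43 ± 0.16, adjusted p = 0.0491) and *SMC2* (-0.46 ± 0.12, adjusted p = 0.0151) dropped more in *cse4*, as did 25.8% of all probe sets. With the arrays of *cse4* replicate 1 at 150 and 180 min removed, an alternative chosen after the data were seen, *PDS5* had -0.23 (adjusted p = 0.201) and was no longer called, and *MCD1* and *SMC2* were. Without *cdc20* replicate 1 or without *cdc20* replicate 2 none of the 3 was called, and without *cse4* replicate 2 the *MCD1* difference was 0.25 (adjusted p = 0.159). Without *cse4* replicate 1 only *MCD1* of the 3 was called. The *MCD1* and *PDS5* calls were also lost without *rad53* replicate 1 or 2, and that of *PDS5* without *cdc8* replicate 1 or 2. Over the last 5 arrays *MCD1* and *SMC2* were not called, and with the G1/S window set by *YOX1*, a G1/S repressor gene, in place of *CLN2*, neither *PDS5* nor *SMC2* was.

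The 2 checkpoint arrests were then set against each other. In *cdc8* against *cse4*, *PDS5* was 2.50-fold higher (log2 difference 1.32 ± 0.20 SE, adjusted p = 0.00245), *IRR1* 2.01-fold (1.01 ± 0.14, adjusted p = 0.00163), *MCD1* 1.92-fold (0.94 ± 0.15, adjusted p = 0.00316) and *SMC1* 1.40-fold (0.49 ± 0.13, adjusted p = 0.0261). *SMC3* missed the threshold (0.43 ± 0.14, adjusted p = 0.0518). That is 4 of 5 cohesin genes and 0 of 5 condensin genes, where 17.3% of all probe sets were higher. The median log2 difference was 0.94 for cohesin, 0.20 for condensin and -0.02 for all probe sets. *SMC1* was not called without *cdc8* replicate 1 or without *cdc8* replicate 2. The order of the strain means at arrest for *PDS5* was *cdc8cdc20* (11.10), *rad53* (10.98), *cdc8* (10.89), *cdc20* (9.74) and *cse4* (9.57), with no overlap between the first 3 strains and the last pair.

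The role of Rad53 was addressed by *rad53* against *cdc8cdc20*, which share their sampling times. In *cdc8cdc20* cells *MCD1* fell back from its peak of 4051 at 72 min and then held a plateau, between 1687 and 2101 from 162 to 360 min. In *rad53* replicate 1 it had a trough of 1046 at 126 min, a second high of 2429 at 216 min and a last value of 765. In *rad53* replicate 2 the trough was 1212 at 144 min, the second high 2058 at 234 min and the last value 939. So *MCD1* had a further wave in both *rad53* cultures, and its second high was 2.32 and 1.70 times the trough in *rad53*, against 1.25 times in *cdc8cdc20*. The same ratio had a median over all probe sets of 1.35 and 1.32 in the *rad53* cultures and 1.15 in *cdc8cdc20*. *SMC4* had a ratio of 2.17 and 1.82 in *rad53*, against 1.25 in *cdc8cdc20*, and *IRR1* of 1.53 and 1.76, against 1.07. *PDS5* had a ratio of 1.43 and 1.22 in *rad53*, against 1.19 in *cdc8cdc20*. Of the 10 members, 9 and 6 were above the median of all probe sets in the *rad53* cultures, and 5 in *cdc8cdc20*. The *cdc20* cultures had 8 and 6, nearly the same as *rad53*, the *cdc8* cultures 4 and 2, and the *cse4* cultures 2 and 5. As many probe sets lie above a median as below it, so 6 and 5 of 10 are near that share.

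The *MCD1* comparison between these strains therefore depended on the window. From 198 to 270 min, on the second wave, the log2 difference was -0.07 ± 0.18 (SE, adjusted p = 0.833). Over the last 5 arrays, from 288 to 360 min, it was -0.89 ± 0.25 (adjusted p = 0.0747), and both *rad53* cultures were below *cdc8cdc20* at all 5 times. In the trough from 108 to 144 min, a window chosen after the data were seen, it was -0.64 ± 0.22 (adjusted p = 0.101). None of these differences was called. With 1 culture of *cdc8cdc20*, its spread was assumed to be that of the other strains.

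**Figure D5:**
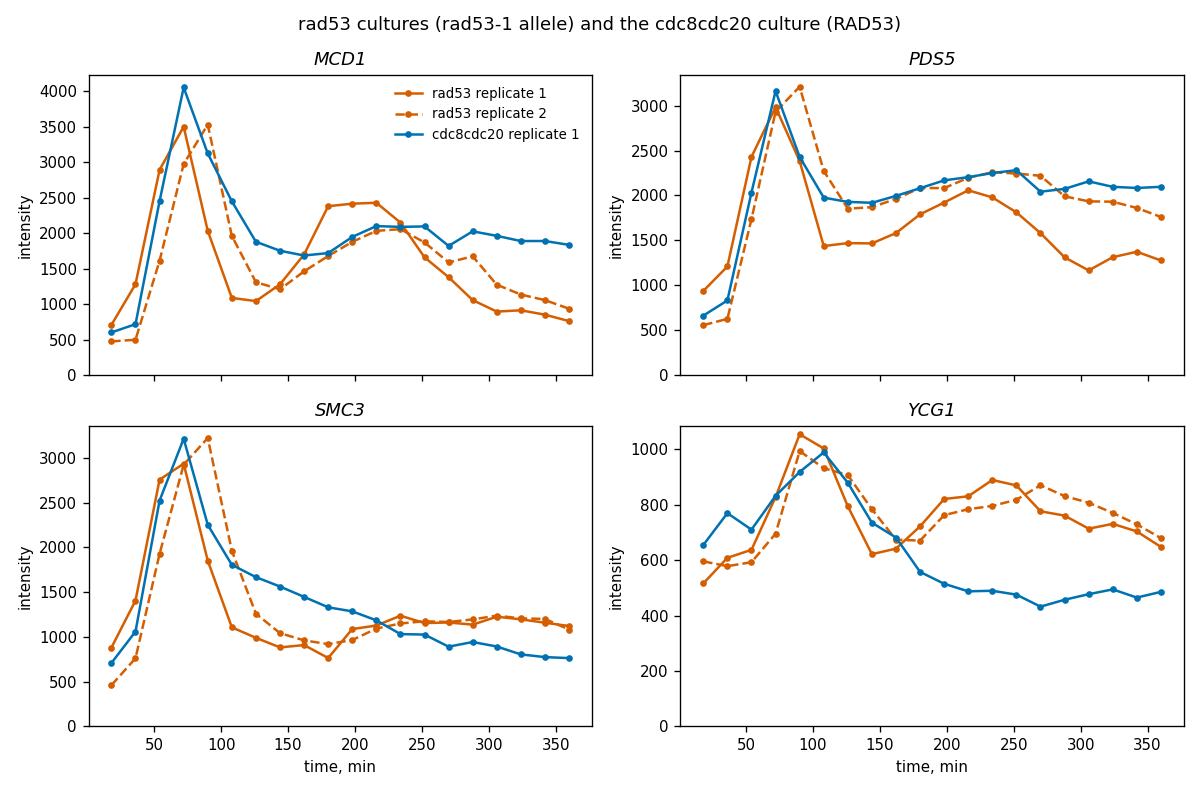
Intensity (vertical axis, from 0) against time in min (horizontal axis) for *MCD1*, *PDS5*, *SMC3* and *YCG1* in *rad53* replicates 1 (solid) and 2 (dashed) and in the *cdc8cdc20* culture. *MCD1* makes a second wave in *rad53* and ends at 765 and 939, against 1837 in *cdc8cdc20*; *SMC3* and *YCG1* end higher in *rad53*.

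For *SMC3* the last values lay in the other order. In *cdc8cdc20* it went from 3215 at 72 min down to 762 at 360 min, where *MCD1* still read 1837 and *PDS5* 2096 in the same culture. In *rad53* cultures *SMC3* ended at 1121 and 1082. Both *rad53* cultures were below *cdc8cdc20* at 4 of 5 times from 108 to 180 min and above it at 5 of 5 times from 288 to 360 min, with a mean log2 difference in the late span of 0.50 (SE 0.22, adjusted p = 0.203), which was not called. *SMC1* was below in both *rad53* cultures at all 15 times from 108 min on, with a difference of -0.43 ± 0.16 in the arrest window (adjusted p = 0.0937).

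*YCG1*, a HEAT repeat subunit gene of condensin, was the 1 member called between *rad53* and *cdc8cdc20* at arrest. Its arrest intensities were 837 and 805 in *rad53* cultures, against 479 in the *cdc8cdc20* culture, a 1.71-fold difference (log2 0.78 ± 0.15 SE, adjusted p = 0.0118), where 12.6% of all probe sets were higher. Both *rad53* cultures were above *cdc8cdc20* at 10 of 10 times from 198 to 360 min. The call was lost without *rad53* replicate 1 (adjusted p = 0.0622), without *rad53* replicate 2 (0.0505) and over the last 5 arrays (0.63, adjusted p = 0.0639). The change from G1/S to arrest of *YCG1* was 0.02 and 0.12 in *rad53* cultures, against -0.77 in *cdc8cdc20* (difference 0.84 ± 0.15, adjusted p = 0.00406), and this call held in every setting run. *SMC2* (0.47 ± 0.15, adjusted p = 0.0410) and *SMC4* (0.42 ± 0.14, adjusted p = 0.0449) were called too. So 3 of 5 condensin genes and 0 of 5 cohesin genes were called for a smaller drop or a gain in *rad53*, where 18.6% of all probe sets were. The *SMC2* and *SMC4* calls were lost after quantile normalization, over the last 5 arrays, with the G1/S window set by *YOX1*, and without any 1 of the *cdc20* or *rad53* cultures, and that of *SMC2* also without either *cdc8* culture. The only *cdc8cdc20* culture could not be left out, so none of these calls, that of *YCG1* included, was tried without it.

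Against *cdc20*, *rad53* had higher *MCD1*, *PDS5* and *IRR1* transcripts at arrest. The *rad53* strain carries both cdc8ts and rad53-1, which *cdc20* lacks. These alleles, the sampling grid and any difference in temperature cannot be told apart in this comparison. *MCD1* arrest intensities were 1961 and 1879 in *rad53* cultures, against 548 and 441 in *cdc20* cultures, a log2 difference of 1.96 ± 0.15 (SE, adjusted p = 0.000283). The *rad53* window lay on the second *MCD1* wave, so this difference is not that of a steady level. On the last array of each culture *MCD1* read 765 and 939 in *rad53*, against 473 and 322 in *cdc20*. The *MCD1* and *PDS5* calls held in every setting run. *PDS5* was 2.37-fold higher (1.25 ± 0.20, adjusted p = 0.00318), *IRR1* 1.41-fold (0.49 ± 0.14, adjusted p = 0.0241) and *YCG1* 1.37-fold (0.45 ± 0.12, adjusted p = 0.0243), where 18.6% of all probe sets were higher. *SMC1* (-0.12 ± 0.13, adjusted p = 0.492) and *SMC3* (0.04 ± 0.14, adjusted p = 0.845) were not called. The *IRR1* and *YCG1* calls were each lost over the last 5 arrays, and without *cdc20* replicate 2 or *rad53* replicate 2. *IRR1* was also lost without *cdc20* replicate 1 or without either *cdc8* culture, and *YCG1* without *rad53* replicate 1. The comparisons with *cdc20* share its cultures and are not independent of each other.

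Within the *cdc20* arrest the cohesin genes parted after the first wave. *PDS5* reached troughs of 535 and 421 at 180 min and came back to 1114 at 240 min and 970 at 300 min, which is 2.08 and 2.30 times the trough and stands at the 91.7 and 89.3 percentile of all probe sets in those cultures. *IRR1* came back 1.56 and 1.63 times, *SMC3* 1.49 and 1.65 times and *SMC1* 1.51 and 1.60 times. *MCD1* came back least of the 5 genes, 1.29 and 1.39 times, between a trough of 475 and 612 at 220 min in replicate 1, and a trough of 346 and 480 at 260 min in replicate 2. The median over all probe sets was 1.23 and 1.26. This is a description of 2 cultures, without a test.

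Periodicity was scored with a periodogram of the first 13 arrays, by a rule adapted from the study's methods. The threshold, a p of at most 0.5, and the ranges of accepted periods came from there, whereas the need to pass in both cultures, the use of 13 arrays in *cdc20* as well, and a longest test period of 200 min, with 52 test frequencies, were set here. By this rule 8 of 10 members were called periodic in *rad53*, where 17.6% of all probe sets were, and 4 of 10 in *cdc20*, where 4.29% were. In *rad53* all members but *SMC3* and *BRN1* passed. *MCD1* had p of 0.0889 and 0.123 at a period of 126 min, and *YCG1* 0.0697 and 0.101 at 142 min. In *cdc20*, at the test period of 147.8 min, *PDS5* (0.169 and 0.158), *IRR1* (0.158 and 0.223), *SMC3* (0.319 and 0.217) and *YCS4* (0.316 and 0.279) passed. *MCD1* did not, with 0.768 and 0.446. The threshold is lenient, 13 arrays span less than 2 such periods, and *rad53* was allowed any test period in a range and *cdc20* the single test period that lies in its narrow range, so the counts of these strains are not set against each other.

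The likeness of the profiles was described by correlation. Pearson r of log2 intensity within a culture, averaged over the 9 cultures, was between 0.72 and 0.92 (median 0.82) for the 10 pairs of cohesin genes, between -0.16 and 0.76 (median 0.62) for the 10 condensin pairs and between -0.12 and 0.83 (median 0.54) for the 25 pairs across the complexes. *MCD1* and *PDS5* were the closest pair (0.92), and *YCS4* was the condensin gene closest to cohesin (0.83 with *PDS5*). All condensin pairs below 0.6 held *BRN1*. The median over cohesin pairs ran from 0.73 in *rad53* replicate 1 to 0.96 in *cdc8* replicate 1. These are descriptions over arrays of a time course, which are not independent and share the G1/S wave.

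By the same measure, the genes outside the list closest to *MCD1* were *ACM1* (0.94), which encodes an inhibitor of the anaphase-promoting complex, *SPT21* (0.90) and *TOS4* (0.90). *SMC1* was closest to *MRC1* (0.94), of the replication fork, and to the mismatch repair genes *MSH6* (0.92) and *PMS1* (0.91). *SMC3* was closest to *CTF18* (0.95), of an alternative clamp loader, *POL32* (0.95), of DNA polymerase delta, and *CDC45* (0.95), of the replicative helicase. The nearest of *IRR1* were *RDH54* (0.92), *ESC8* (0.92) and *ACM1* (0.91), and those of *PDS5* were *ACM1* (0.91), *ESC8* (0.91) and *GIN4* (0.89). For *YCS4* they were *SLI15* (0.90), of the chromosomal passenger complex, *CTF18* (0.87) and *LTE1* (0.87). For *YCG1* they were *CSN9* (0.81) and the kinesin genes *KAR3* (0.79) and *CIN8* (0.78), and for *SMC2* *CNM67* (0.86), of the spindle pole body, *YEH2* (0.83) and *DUO1* (0.80), of the kinetochore. *SMC4* had no neighbour above 0.74 (*YKL063C*, then *CIK1* at 0.71 and *MGM101* at 0.71), and *BRN1* had *YOR011W-A* (0.84), *YHR022C-A* (0.82) and *YAR064W* (0.81).

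Partners of the complexes were read from a list of 26 genes, all with a probe set. In the rise into G1/S 15 of 26 rose and 3 fell, where 21.7% and 23.4% of all probe sets did. The highest were *CTF18* (1.35), *TOF1* (1.22) and *CSM3* (1.17), which act at the fork when cohesion is set up, and *SMC6* (1.22), of the Smc5/6 ring. The Smc5/6 genes did not move together. *NSE4* (0.49) and *SMC5* (0.45) rose too, *NSE1* and *NSE5* were not called, and the 3 partners that fell were *KRE29* (-0.25), *MMS21* (-0.21) and *NSE3* (-0.19). At arrest 4 of 26 were higher and 8 lower in *cdc8* against *cdc20* (19.1% and 33.0% of all probe sets). *PDS1*, the gene of securin, the inhibitor of separase, was higher by 1.64 ± 0.15 on the log2 scale (SE, adjusted p = 0.000232). *NSE4* (-1.21), of the Smc5/6 complex, *SGO1* (-0.98), which protects cohesion at centromeres, and the meiotic kleisin gene *REC8* (-1.25) were lower. The *REC8* call was lost after quantile normalization, with the replicate number as a term, and without *cdc20* replicate 2 or either *cdc8* culture. In *cse4* against *cdc20* 1 of 26 was higher, *PDS1* by 1.07 ± 0.15 (adjusted p = 0.00185), and 8 were lower (17.7% and 27.1% of all probe sets), led by *MRC1* (-1.15), *NSE1* (-0.99) and *CTF8* (-0.70), the last lost over the last 5 arrays and without *cdc20* replicate 1 or 2. In *rad53* against *cdc8cdc20* 2 of 26 were higher, *SGO1* (0.94) and *DCC1* (0.69), and 2 lower, *ELG1* (-0.535) and *HOS1* (-0.49), where 12.6% and 11.7% of all probe sets were. All 4 of these calls were lost over the last 5 arrays and without *rad53* replicate 1 or 2, and those of *DCC1*, *ELG1* and *HOS1* also without any 1 of the *cdc8* or *cdc20* cultures. Quantile normalization also ended the calls of *DCC1* (adjusted p = 0.0593) and *HOS1* (0.0613), and the replicate number as a term those of *ELG1* (0.0685) and *HOS1* (0.0652). In *rad53* against *cdc20* 2 of 26 were higher and 7 lower (18.6% and 24.2% of all probe sets), and *PDS1*, with 0.43 ± 0.15 (SE, adjusted p = 0.0567), was not called.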

How the data were processed

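The authors made the deposited values, linear intensities per probe set, with the affy package (1.32.1, per the submitters' processing notes): invariant-set normalization, perfect-match probes only, no background correction and the Li-Wong summary, after masking probes with *S. pombe* matches. These compress differences of dim probe sets. The labels give 1 labelling kit for all arrays, the methods 2 possible kits, and the kit of each array is not known. Values were used as deposited; 184 of 5900 probe sets were controls and left out. Groups, replicate numbers and times came from the labels. The last *cse4* time is 345 min in 1 label field and 245 min in another, and 345 was used. The labels do not say how replicate cultures were raised, so p-values measure the spread between these cultures.

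Per culture and probe set, log2(intensity + 1) was averaged over a window and fitted in R 4.3.3 with limma 3.58.1 over all 9 cultures (4 residual degrees of freedom, two-sided, Benjamini-Hochberg over 5716 probe sets, threshold 0.05). Periodograms and descriptions used Python 3.11.15. Both methods were tested on simulated data. Members, lists and named genes (all members, up to 4 called partners per comparison described, the 3 nearest profiles per member) were chosen with earlier results of these data known. Depth has no meaning for arrays; the number of cultures limits the precision. Alternatives are given below. No promoter or protein sequences were used here, so the planned motif search was not run.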

Additional observations from a re-analysis of the deposited data

Results flagged for a closer look

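Of the 30 tests of a member's change from G1/S to arrest between strains (10 members in 3 comparisons), 10 passed, each a difference between 2 strains in the same contrast. Of all 5716 probe sets, 2697 passed between *cdc8* and *cdc20*, 2854 between *cse4* and *cdc20* and 1937 between *rad53* and *cdc8cdc20*. With both directions counted, 4, 3 and 3 of 10 members passed, in no comparison a larger share than over all probe sets. Between *cdc8* and *cdc20* they were *MCD1* (log2 difference 1.55), *PDS5* (0.64), *YCG1* (0.46) and *SMC4* (0.39), all with a smaller drop or a gain in *cdc8*. Between *cse4* and *cdc20* they were *MCD1* (0.50), with a smaller drop in *cse4*, and *PDS5* (-0.43) and *SMC2* (-0.46), with a larger drop in *cse4*. Between *rad53* and *cdc8cdc20* they were *YCG1* (0.84), *SMC2* (0.47) and *SMC4* (0.42), with a smaller drop or a gain in *rad53*. Of these 10, *MCD1* between *cdc8* and *cdc20* and *YCG1* between *rad53* and *cdc8cdc20* kept the call in every alternative run. For *YCG1* the alternatives could not leave out the only *cdc8cdc20* culture, on which that difference rests. No group had 4 cultures, so that single cultures were not screened for outlying values.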

How the results depend on the processing

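Over quantile normalization, a pseudocount of 32, removal of the dimmest probe sets, other windows and a replicate block, single genes kept direction and call in 249 of 282 cases. *MCD1* between *rad53* and *cdc8cdc20*, uncalled, turned to 0.0261 with the replicate block, and *YCG1* there to -0.0527 from 108 to 144 min; the cause was not tested. For *rad53* against *cdc8cdc20* at arrest, 1 member and 1385 probe sets were called, with 0 and 355 over the last 5 arrays and 0 and 668 from 108 to 144 min (chosen after seeing the data). In the change, the last 5 arrays gave 1 member and 881 probe sets against 3 and 1937, and quantile normalization and a window around *YOX1* gave 1 member each; for *cse4* against *cdc20* the *YOX1* window gave 1 against 3. With all arrays 395 probe sets were periodic in *rad53*, against 1007. *BRN1* is among the dimmest probe sets, so it has no value there.

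With a culture left out, members called ranged from 3 to 8 (*cdc8* against *cdc20*, probe sets 1631 to 3802), 1 to 3 (*cse4* against *cdc20*, 1391 to 3297), 3 to 7 (*cdc8* against *cse4*, 908 to 3098), 0 to 2 (*rad53* against *cdc8cdc20*, 590 to 2561) and 2 to 6 (*rad53* against *cdc20*, 1063 to 3437). For the change they ranged from 1 to 4 (*cdc8*, 1628 to 2980), 0 to 5 (*cse4*, 1808 to 2927) and 1 to 3 (*rad53*), and for the rise from 9 to 10 (1711 to 3686). Periodic probe sets from 1 culture were 1554 to 1793 in *rad53* and 544 to 662 in *cdc20*.

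Replicate numbers did not pair the cultures: deviations of same-numbered cultures correlated between -0.28 and 0.21 over strain pairs. With the replicate block 6 members and 2831 of 5716 probe sets were called in *cdc8* against *cdc20*, 6 and 1935 in *cdc8* against *cse4* and 5 and 2261 in *rad53* against *cdc20*, and *PDS5* (*cse4*) and *SMC2* (*rad53*) lost their calls in the change (adjusted p of 0.0662 and 0.0615).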
